A study of Mus musculus with 12 samples.

Results

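The data described here are the wild-type (WT) samples of an RNA-sequencing study of dermis, the connective tissue layer of mouse skin, in a wounding experiment. All were from C57BL/6 mice aged 6 weeks with no altered allele. They form 2 groups of 3 biological replicates, day 0 and day 7, and the 6 other samples of the series, from mice without Cthrc1, were used only for an alternative fit. The design text speaks of paired wounds of equal size. How the dermis was separated, whether the day 0 tissue was intact skin or a fresh wound, and which samples came from the same animal are not given in the sources used here, so p-values measure only the spread between these samples. A gene was included when its mean level over the 6 WT samples was at least 1 FPKM (a fragment count scaled to gene length and sequencing depth), which kept 14251 of the 55401 genes in the deposited table. Syt8 (1.0001 FPKM) lay just inside this limit and Gm2399 (0.99983 FPKM) just outside it. The question was which genes, grouped by cell type and pathway, differed between the days in the wild type alone.

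Skin wounds heal through overlapping phases in which blood cells enter, keratinocytes migrate over the gap, and fibroblasts and new vessels fill it with matrix that is later remodelled. Hair follicles sit in the dermis and cycle between rest (telogen) and growth (anagen). In anagen, matrix cells of the hair bulb divide and differentiate into the inner root sheath and the keratinised shaft, and melanocytes pass pigment to them, while the surrounding fat, vessels and nerves are also remodelled with the cycle.

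Between day 0 and day 7 most tested genes of cell division and of pigment cells rose. Most tested genes of fat cells, the immediate early response, heat shock and the mitochondrial genome fell, as did a smaller part of those of Schwann cells and the clock. Genes of the hair follicle's inner root sheath and shaft went from near 0 to high levels, and most liver-type secreted protein genes went down to near 0. In these 3 lists 9 of 10, 12 of 13 and 11 of 14 genes passed the filter on low values through 1 day alone, with a mean under 1 FPKM on the other, so their shares called are a description and support nothing. Of the pigment and cell division genes tested, 3 of 8 and 4 of 45 also had a day 0 mean under 1 FPKM. Any other gene named below with a mean under 1 FPKM on 1 day also passed the filter through the other day alone. The call of such a gene is a description and supports nothing by itself. Over all genes, edgeR's quasi-likelihood test at a Benjamini-Hochberg adjusted p under 0.05 called 2121 genes, 14.9% of those tested. Of these, 896 (6.29%) were higher and 1225 (8.60%) lower on day 7, and these shares are the background for every list below. The lists hold genes of a cell type or pathway, and a level summed over a list is in FPKM. The median log2 change over all genes was 0.00 as scaled by edgeR, and 0.19 when scaled to total counts, which turned the split into 1510 higher and 595 lower; changes below are relative to the first scaling.

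Sequencing depth was 48778112 to 76938132 counts per sample, and no pair of samples held identical values. The day 0 samples resembled each other (Pearson r of 0.962 to 0.967 across genes, on log2 counts scaled to depth). Day 7 replicate 1 stood apart, with r of 0.893 and 0.868 against replicates 2 and 3, which had r of 0.957 with each other. In it, 1491 genes were over 2-fold above and 1352 over 2-fold below the mean of the other 2 day 7 replicates, taken on the log2 scale. Without that library, 3458 genes were called, 1636 higher (11.5%) and 1822 lower (12.8%). The number called was 523, 362 and 357 without day 0 replicates 1, 2 and 3, and 963 and 1942 without day 7 replicates 2 and 3. Of the 128 called genes that were chosen for naming by rule, 45 were called in each of these 6 fits, and these genes are said below to have kept their call. For the others, and for called list members named beside them, the highest adjusted p over those fits is given where their values are, mostly after "up to"; in each of the 128 genes it came from leaving out a day 0 library. Calls by limma below are with a pseudocount of 1 unless 0.1 is named. Counts per list are given without each library in turn where the list carries a result. The Y-linked genes Ddx3y and Eif2s3y were expressed in all 6 samples.

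**Figure D1:**
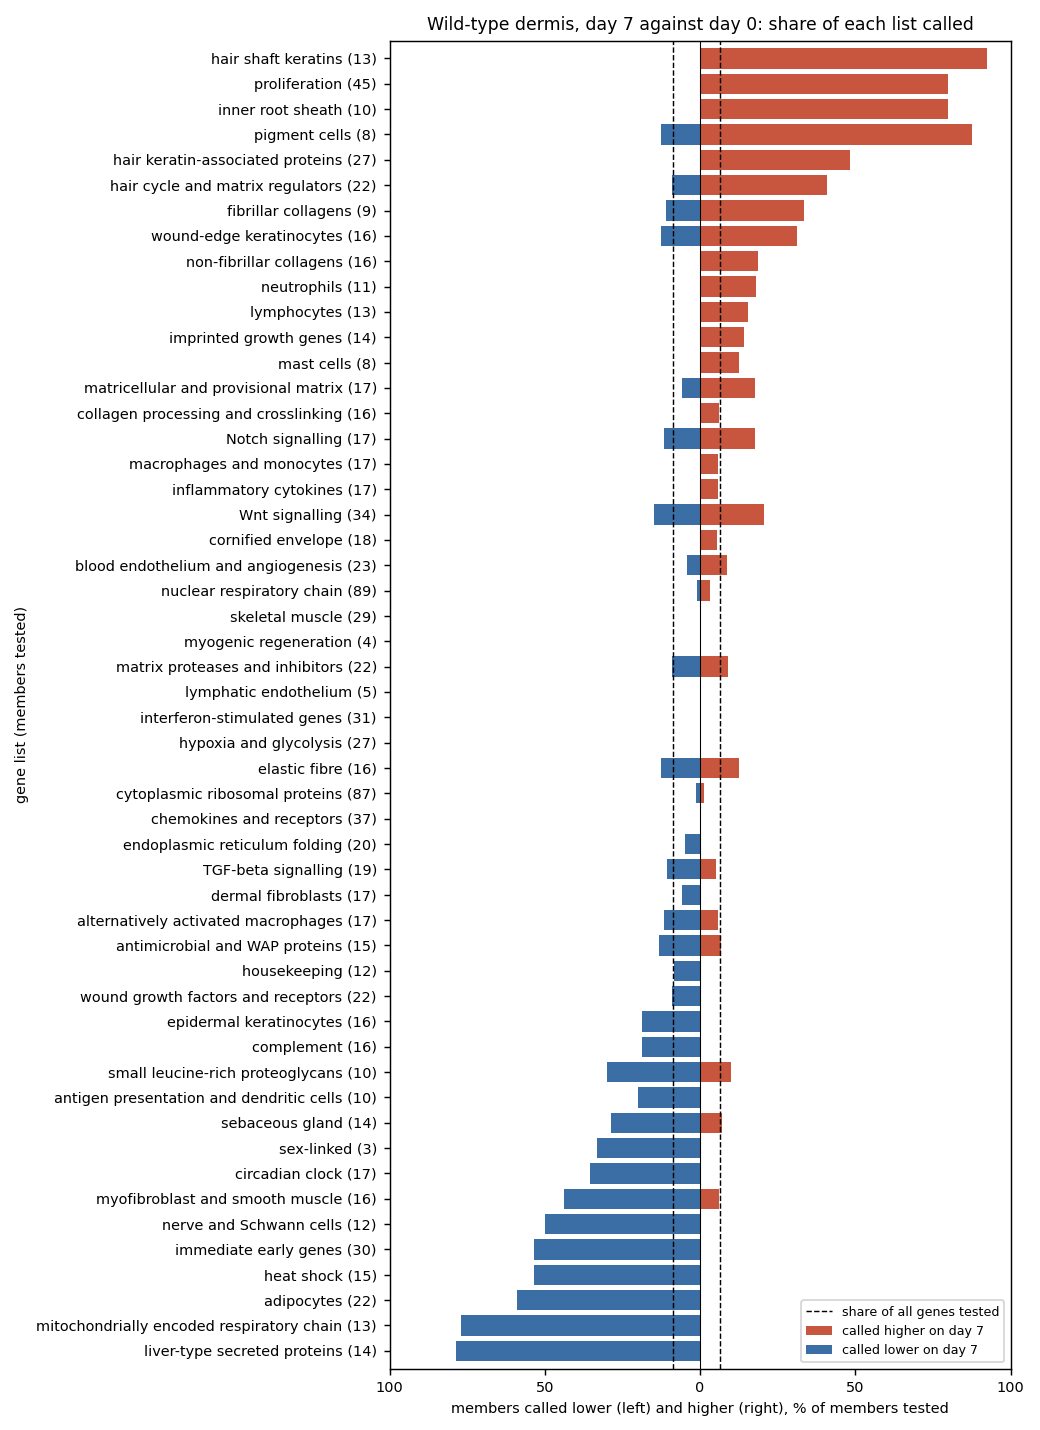
Share of the tested members of each gene list that edgeR called lower (bars to the left) or higher (bars to the right) on day 7, in percent; the dashed lines mark the shares over all genes, 8.60% lower and 6.29% higher. The shaft keratin, pigment, inner root sheath and proliferation lists reach farthest to the right, and the liver-type and mitochondrially encoded lists farthest to the left.

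The samples held dermal genes but were not dermis alone. The fibrillar collagen list summed to 4971, 5952 and 4367 FPKM on day 0 and 5274, 4456 and 3280 FPKM on day 7. Epidermal keratinocyte markers summed to 13230, 12450 and 13010 FPKM on day 0 and 3019, 8068 and 12360 FPKM on day 7, so by this length-scaled measure they were above the collagens in 5 of 6 samples. By share of counts the collagens were above in each sample, at 3.20% to 5.77% against 0.72% to 3.19%. Per length, the basal keratin gene Krt5 was above Col1a1, the main collagen I chain, on day 0 (3826, 3388 and 3571 against 2410, 3122 and 2211 FPKM). Skeletal muscle genes were also present in every sample, at 743, 534 and 1203 FPKM on day 0 and 228, 2000 and 428 FPKM on day 7. These levels varied between samples, and their part in the results was not tested. In such bulk tissue, fewer cells of a type and less RNA per cell cannot be told apart.

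The inner root sheath, the layer that encases the growing hair, held 6 of the 10 largest rises. Its genes went from near 0 to high levels in each day 7 sample. The list summed to 2.77, 5.6 and 5.08 FPKM on day 0 and 1683, 4107 and 3792 FPKM on day 7. Of 10 members tested of 10 in the table, 8 were called higher and 0 lower, and day 7 values lay wholly above day 0 values for 10 of 10, beside 29.6% of all genes. On day 0, 9 of these 10 had a mean under 1 FPKM, so they passed the level filter only through day 7 and this count supports nothing by itself. Leaving out 1 library, the number called higher was 6, 4 and 4 without day 0 replicates 1, 2 and 3 and 10, 8 and 8 without day 7 replicates 1, 2 and 3.

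Krt71 (ENSMUSG00000051879, chromosome 15, 101733949 to 101743109), a type II keratin of the inner root sheath, was at 0.307, 1.06 and 0.821 FPKM on day 0 and 595, 1328 and 1234 FPKM on day 7 (log2 change 10.27, standard error 0.70, edgeR adjusted p = 0.00435). All 3 day 7 samples were far above all 3 day 0 samples, with replicate 1 the lowest of the day. Krt28, a type I keratin of the same layer, was at 0.391, 0.686 and 0.373 FPKM on day 0 and 86.4, 239.5 and 237 FPKM on day 7 (log2 change 8.35, edgeR adjusted p = 0.00435). Krt27 was at 0.165, 0.509 and 0.669 FPKM on day 0 and 243, 594 and 546 FPKM on day 7 (log2 change 9.78, edgeR adjusted p = 0.00435). Tchh, which encodes trichohyalin, a protein that hardens the sheath, already had a measurable level on day 0 and was at 1.91, 2.03 and 2.06 FPKM on day 0 and 102, 366 and 284 FPKM on day 7 (log2 change 6.75, edgeR adjusted p = 0.00442). These 4 genes kept their call in all 6 fits. Krt25 (496, 1063 and 1069 FPKM on day 7) and Krt73 (139.5, 320.0 and 328 FPKM) were also called, and the highest adjusted p over the edgeR fits without 1 library was 0.0758 for Krt25 and 0.0643 for Krt73. Tchhl1 had no count on day 0 and was not called. Against a limit of 3 counts per library, its day 7 mean was at least 395-fold higher.

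The keratinised shaft showed the same direction at lower levels. Hair shaft keratins summed to 7.05, 8.1 and 10.4 FPKM on day 0 and 96, 539 and 327 FPKM on day 7, with replicate 1 the lowest and replicate 2 the highest of the day. Of 13 tested, 12 were called higher and 0 lower, and 12 had passed the level filter only through day 7. This count rested on every day 0 library: it was 2, 1 and 1 without day 0 replicates 1, 2 and 3 and 13, 9 and 10 without day 7 replicates 1, 2 and 3. Krt35, a keratin of the early shaft cortex and cuticle, was at 0.207, 0.162 and 0.335 FPKM on day 0 and 51.8, 123 and 139 FPKM on day 7 (log2 change 8.56, standard error 0.54, edgeR adjusted p = 0.00435) and kept its call in all 6 fits. Krt87 was at 0.197, 0.211 and 0.176 FPKM on day 0 and 5.65, 56.8 and 24.2 FPKM on day 7 (log2 change 6.95, edgeR adjusted p = 0.011, up to 0.0648). Krt33b and Krt82 had no count on day 0 and were at least 599-fold and 363-fold higher. Reads of near-identical copies such as Krt33a and Krt33b may have been split between them.

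Keratin-associated proteins form the matrix in which shaft keratins are embedded, and their genes sit in clusters of close copies, so reads may be split among them as well. The 58 in the table summed to 5.15, 6.47 and 9.38 FPKM on day 0 and 35.1, 686 and 182 FPKM on day 7, a wider spread between day 7 samples than for the inner root sheath. Of 27 that passed the filter, 13 were called higher and 0 lower, and 25 had passed only through day 7. That number was 0, 0 and 0 without day 0 replicates 1, 2 and 3 and 27, 3 and 6 without day 7 replicates 1, 2 and 3. Krtap8-1 was at 0, 0.0768 and 0.236 FPKM on day 0 and 8.52, 132 and 34.1 FPKM on day 7 (log2 change 8.80, edgeR adjusted p = 0.0203, up to 0.0948), so replicate 2 alone carried most of the level, and without it the log2 change was 7.33. Krtap7-1 was at 0, 0.142 and 0.225 FPKM on day 0 and 8.75, 103 and 29.3 FPKM on day 7 (log2 change 8.25, edgeR adjusted p = 0.0185, up to 0.0905). Krtap9-3, Krtap24-1 and Krtap9-1 had no count on day 0 and were not called. Against a limit of 3 counts per library, their day 7 means were at least 155-fold, 150-fold and 106-fold higher.

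**Figure D2:**
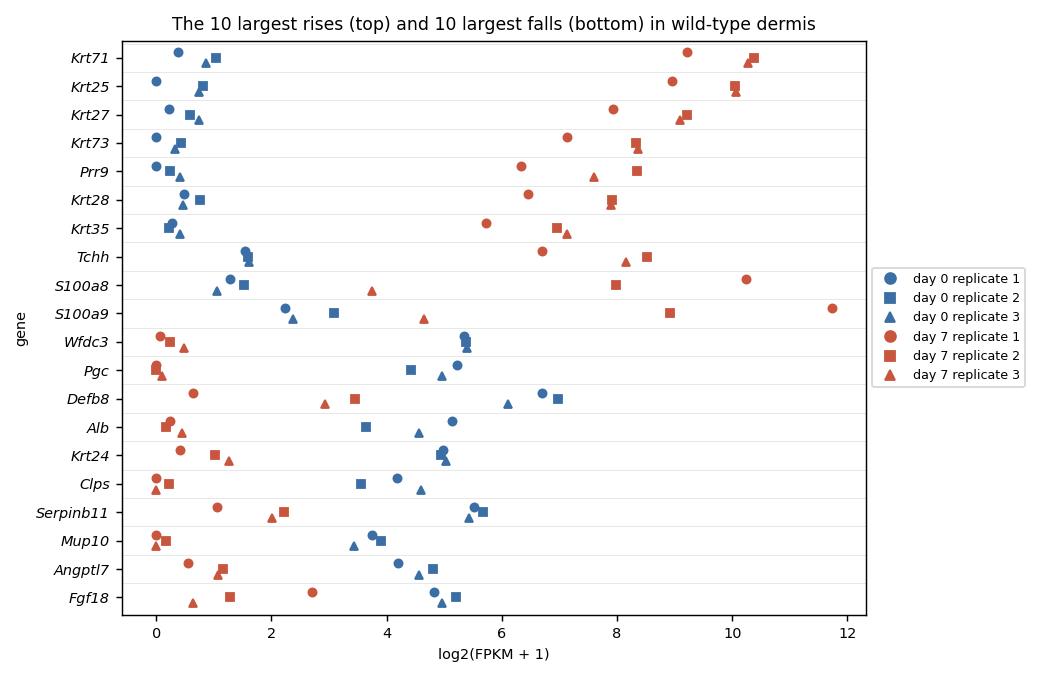
Level of the 10 genes with the largest rises and the 10 with the largest falls in each sample, as log2(FPKM + 1), with day 0 in blue and day 7 in red and circles, squares and triangles for replicates 1, 2 and 3. Hair keratins and Tchh separate fully between days, while S100a8 and S100a9 spread from 12.5 to 1210 and from 24 to 3409 FPKM among the day 7 samples.

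The promoters of 1 inner root sheath and 1 shaft keratin are shown because the keratin lists moved together and both carry a TATA box sequence close to the start. The windows hold the 250 bases before the annotated start, from RefSeq on GRCm38.p6, written 5′ to 3′ in the direction of the gene, with TATAAA in capitals. Krt28 is on the minus strand at chr11:99374904-99375153 and Krt31 on the minus strand at chr11:100050552-100050801. TATAAA begins 30 bases before the start of Krt28 and 29 before that of Krt31.
Krt28: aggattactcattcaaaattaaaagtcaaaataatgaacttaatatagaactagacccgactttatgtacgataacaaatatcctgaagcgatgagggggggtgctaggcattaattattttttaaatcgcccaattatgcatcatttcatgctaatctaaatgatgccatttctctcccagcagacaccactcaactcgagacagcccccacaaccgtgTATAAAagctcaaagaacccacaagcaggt
Krt31: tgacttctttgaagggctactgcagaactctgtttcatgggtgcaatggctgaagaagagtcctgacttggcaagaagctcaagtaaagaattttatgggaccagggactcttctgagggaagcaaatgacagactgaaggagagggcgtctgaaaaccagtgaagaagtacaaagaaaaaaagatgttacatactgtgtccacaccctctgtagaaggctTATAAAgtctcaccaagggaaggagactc
TATAAA, searched on the gene's strand and its complement from 250 bases before to 50 after the start, occurred in 14.2% of 27025 promoter windows. It occurred in 7 of 9 inner root sheath windows found, in 6 of 9 of the shaft keratins and in 42 of 51 of the keratin-associated proteins, which include close copies. Such a match is a description of the letters only.

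Among regulators of hair growth, 9 of 22 were called higher and 2 lower, Nog and Fgf18 (median log2 change 0.82). The number called higher was 3, 2 and 2 without day 0 replicates 1, 2 and 3 and 14, 3 and 7 without day 7 replicates 1, 2 and 3. Shh, a ligand made by the hair matrix, was at 0.243, 0.0775 and 0.098 FPKM on day 0 and 4.54, 8.74 and 11.7 FPKM on day 7 (log2 change 5.66, edgeR adjusted p = 0.00642). Dlx3, a homeobox factor of the differentiating matrix, was at 4.08, 4.12 and 3.41 FPKM on day 0 and 36.7, 91.3 and 103 FPKM on day 7 (log2 change 4.10, edgeR adjusted p = 0.00561). Nog, which encodes the BMP inhibitor noggin, went the other way, at 5.68, 6.05 and 5.65 FPKM on day 0 and 0.719, 0.632 and 0.623 FPKM on day 7 (log2 change -3.30, edgeR adjusted p = 0.00435). Its day 7 values lay within a narrow range, and all of them were under all day 0 values. These 3 genes kept their call in all 6 fits. Of the 22, 3 had a day 0 mean under 1 FPKM, Shh among them. Nog was the 1 member with a day 7 mean under 1 FPKM. These passed the level filter through 1 day alone, so their part of the counts supports nothing by itself. Prr9, named below, also passed it through day 7 alone. Fgf18, a growth factor of the resting hair follicle, was also among the 10 largest falls at 27.4, 36 and 30.3 FPKM on day 0 and 5.54, 1.42 and 0.557 FPKM on day 7 (log2 change -3.73, edgeR adjusted p = 0.048, up to 0.135), with day 7 replicate 1 well above the other 2, and a log2 change of -5.16 without it. Prr9, a proline-rich protein of the hair follicle and other epithelia, was among the 10 largest rises at 0, 0.186 and 0.335 FPKM on day 0 and 79.7, 323 and 192 FPKM on day 7 (log2 change 9.91, edgeR adjusted p = 0.00863, up to 0.0577), and its call was lost without 1 library (day 0 replicate 2).

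Pigment genes rose in the same samples as the hair genes. The list summed to 19.4, 18.5 and 19.5 FPKM on day 0 and 69.5, 183 and 167 FPKM on day 7, with replicate 1 again the lowest of the day. Of 8 members tested, 7 were called higher and 1 lower, and the number higher was 4, 3 and 3 without day 0 replicates 1, 2 and 3 and 7, 6 and 6 without day 7 replicates 1, 2 and 3. On day 0, 3 of the 8, Slc45a2 and Tyr among them, had a mean under 1 FPKM. These passed the level filter only through day 7, so their part of the count supports nothing by itself. Pmel, which builds the melanosome's fibrils, was at 4.54, 3.69 and 5.17 FPKM on day 0 and 23.5, 60.9 and 58.5 FPKM on day 7 (log2 change 3.20, standard error 0.36, edgeR adjusted p = 0.00775). Dct, an enzyme of melanin synthesis, was at 3.53, 2.77 and 3.88 FPKM on day 0 and 15.2, 35.5 and 38.1 FPKM on day 7 (log2 change 2.91, edgeR adjusted p = 0.0081). Slc45a2, a melanosomal transporter, was at 0.0215, 0.0291 and 0.0232 FPKM on day 0 and 1.45, 4.29 and 3.19 FPKM on day 7 (log2 change 6.56, edgeR adjusted p = 0.00435). These 3 kept their call in all 6 fits. Tyr, which encodes tyrosinase, was at 0.197, 0.0682 and 0.0767 FPKM on day 0 and 1.94, 5.69 and 5.16 FPKM on day 7 (log2 change 5.00, edgeR adjusted p = 0.00913, up to 0.0544). The member called lower was Mitf, the melanocyte master regulator, at 5.89, 6.19 and 6.2 FPKM on day 0 and 3.25, 4.98 and 5.31 FPKM on day 7 (log2 change -0.63, edgeR adjusted p = 0.0462, up to 0.149). Its call was lost under RLE, upper-quartile and total-count scaling and with limma.

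Genes of epidermal keratinocytes were called lower or did not pass the test, and where in the skin they were expressed was not measured. Of 16 keratinocyte markers, 0 were called higher and 3 lower (median log2 change -0.75). The number called lower was 0, 0 and 0 without day 0 replicates 1, 2 and 3 and 4, 0 and 5 without day 7 replicates 1, 2 and 3. Krt15, a keratin of basal and follicle stem cells, was at 2281, 2251 and 2397 FPKM on day 0 and 82.7, 234 and 585 FPKM on day 7 (log2 change -3.18, standard error 0.66, edgeR adjusted p = 0.0318). Each day 7 sample was under every day 0 sample, but they differed several-fold from each other, and the adjusted p reached 0.1 without 1 library. Itgb4, an integrin chain that anchors basal cells, was at 53.5, 51.4 and 47.2 FPKM on day 0 and 12.8, 23.7 and 28.9 FPKM on day 7 (log2 change -1.43, edgeR adjusted p = 0.021, up to 0.0842). Dsg3, a desmosomal cadherin, was at 33.8, 31.3 and 30 FPKM on day 0 and 10.2, 18.4 and 19.6 FPKM on day 7 (log2 change -1.18, edgeR adjusted p = 0.021, up to 0.084). Krt5 itself did not pass, at 3826, 3388 and 3571 FPKM on day 0 and 907, 1594 and 2821 FPKM on day 7 (edgeR adjusted p = 0.0743), although the ranges of the days were apart.

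Genes of the keratinocytes at a wound's edge were mixed, with 5 of 16 called higher (Gjb2, Sprr1a, Sprr1b, Krt16 and Krt6b) and 2 lower (Hbegf and Epgn). Krt16, a keratin of activated keratinocytes, was at 41, 21.6 and 24.2 FPKM on day 0 and 165, 716 and 206 FPKM on day 7 (log2 change 3.45, edgeR adjusted p = 0.0257, up to 0.108), with replicate 2 the highest of the day. Gjb2, which encodes the gap junction protein connexin 26, was at 4.17, 2.94 and 2.49 FPKM on day 0 and 47.2, 179.7 and 98.9 FPKM on day 7 (log2 change 4.88, standard error 0.54, edgeR adjusted p = 0.00742). Hbegf, a ligand of the EGF receptor, was at 28.8, 23.6 and 25 FPKM on day 0 and 4.92, 7.94 and 10.1 FPKM on day 7 (log2 change -1.96, edgeR adjusted p = 0.00778). Both kept their call in all 6 fits. Sprr1a, a cornified envelope precursor, was at 102, 94.5 and 88.8 FPKM on day 0 and 221, 532 and 466 FPKM on day 7 (log2 change 1.89, edgeR adjusted p = 0.0146, up to 0.0752). The wound-edge keratin Krt17 overlapped between days, at 800.0, 824 and 758 FPKM on day 0 and 434, 858 and 861 FPKM on day 7 (edgeR adjusted p = 0.339). Without day 0 replicates 1, 2 and 3, the calls were 1 higher and 1 lower in each fit, and without day 7 replicate 1 they were 5 and 4. In the cornified envelope list, 1 of 18 was called higher and 0 lower: Tgm1, the transglutaminase that crosslinks the envelope, at 7.48, 8.17 and 8.52 FPKM on day 0 and 21.2, 28.7 and 22.9 FPKM on day 7 (log2 change 1.40, edgeR adjusted p = 0.00613), kept its call in all 6 fits. That list had, at an unadjusted p under 0.05, 4 higher and 1 lower, and without day 7 replicate 1 edgeR called 5 and 1.

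Of the sebaceous gland genes, Mgst1 and 3 others fell and Gsdmc rose, and 9 of 14 did not pass the test. The list summed to 884, 905 and 724 FPKM on day 0 and 241, 414 and 557 FPKM on day 7, with no overlap between days. Of 14 members, 4 were called lower and 1 higher (median log2 change -1.03), and the number lower was 1, 1 and 1 without day 0 replicates 1, 2 and 3 and 7, 1 and 4 without day 7 replicates 1, 2 and 3, and 1 with total-count scaling. Mgst1, a glutathione transferase, was at 123, 121 and 100 FPKM on day 0 and 42.8, 50.1 and 61.9 FPKM on day 7 (log2 change -1.34, standard error 0.13, edgeR adjusted p = 0.00616) and kept its call in all 6 fits. Scd1, the desaturase that makes monounsaturated fat, was at 306, 336 and 268 FPKM on day 0 and 48.1, 111 and 155 FPKM on day 7 (log2 change -1.76, edgeR adjusted p = 0.0337, up to 0.115). Awat1, a wax synthase, was at 23.2, 23.8 and 17.4 FPKM on day 0 and 3.77, 6.4 and 11.2 FPKM on day 7 (log2 change -1.81, edgeR adjusted p = 0.0284, up to 0.103). Gsdmc, a gasdermin, was the member called higher, at 1.55, 0.632 and 0.661 FPKM on day 0 and 11.7, 16.9 and 9.88 FPKM on day 7 (log2 change 3.58, edgeR adjusted p = 0.0098, up to 0.0544). Its day 0 mean was under 1 FPKM, so it passed the level filter only through day 7. Reads may be split among its close copies.

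**Figure D3:**
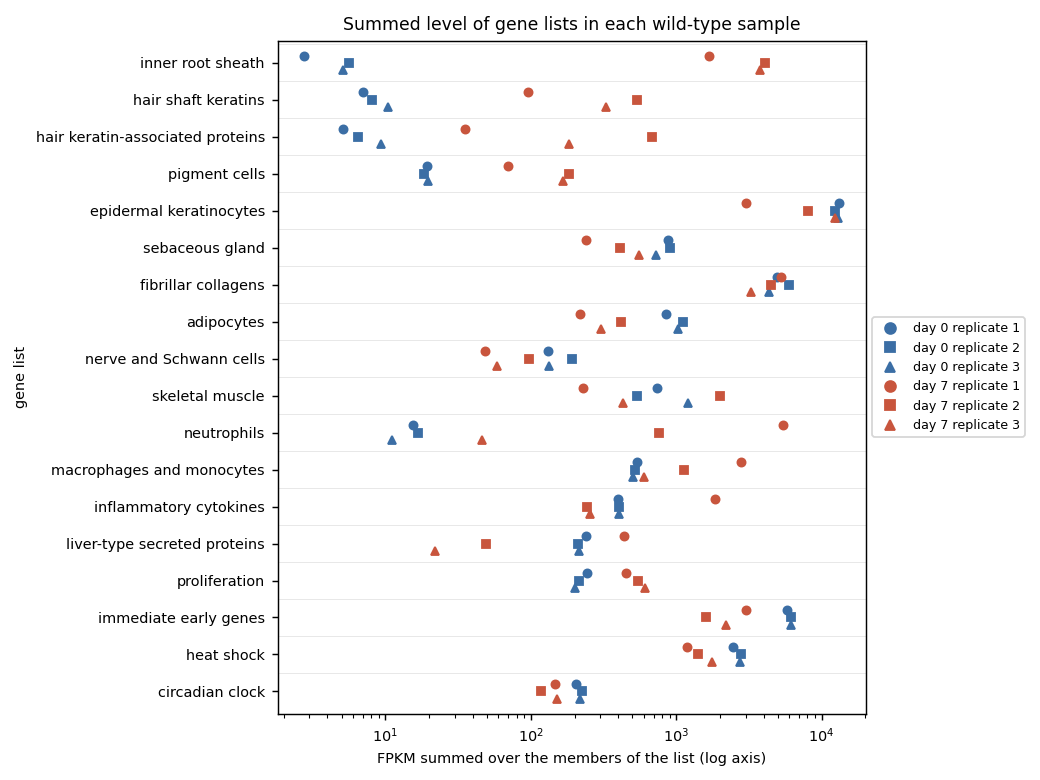
Summed FPKM of 18 gene lists in each sample on a log axis, with day 0 in blue and day 7 in red and circles, squares and triangles for replicates 1, 2 and 3. Inner root sheath, shaft and pigment lists are higher in all 3 day 7 samples, fat and sebaceous lists are lower in all 3, and neutrophil genes run from 46.3 to 5413 FPKM within day 7.

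In the extracellular matrix, most collagen genes did not pass the test. Of 9 fibrillar collagen genes, 3 were called higher (Col11a1, Col24a1 and Col27a1) and 1 lower (Col1a2). On day 0, 2 of the 9, Col11a1 and Col24a1, had a mean under 1 FPKM. They passed the level filter only through day 7, so their part of the count supports nothing by itself. None of the 4 calls held without a day 0 library (0 called in each of those 3 fits), nor without day 7 replicate 2 (0). Without day 7 replicates 1 and 3, edgeR called 4 and 5 higher. Col1a1 overlapped between days, at 2410, 3122 and 2211 FPKM on day 0 and 2293, 1887 and 1525 FPKM on day 7 (edgeR adjusted p = 0.193). Col1a2, its partner chain, was at 1183, 1490 and 1075 FPKM on day 0 and 694, 852 and 616 FPKM on day 7 (log2 change -0.97, edgeR adjusted p = 0.0449, up to 0.145). Col11a1, a minor chain that nucleates fibrils, was at 0.419, 0.317 and 0.344 FPKM on day 0 and 0.916, 2.62 and 2.72 FPKM on day 7 (log2 change 2.31, edgeR adjusted p = 0.0194, up to 0.0898). Among 16 non-fibrillar collagens, 3 were called higher (Col12a1, Col6a3 and Col8a1) and 0 lower. The number higher was 1, 1 and 0 without day 0 replicates 1, 2 and 3 and 5, 1 and 7 without day 7 replicates 1, 2 and 3. Col12a1, a collagen of fibril surfaces, was at 7.39, 3.49 and 5.01 FPKM on day 0 and 31.5, 56 and 32.5 FPKM on day 7 (log2 change 2.73, standard error 0.37, edgeR adjusted p = 0.011, up to 0.0638), each day 7 sample over every day 0 sample, and its call was lost only without day 0 replicate 3. Col6a3, a chain of beaded microfibrils, was at 31.3, 19.5 and 26.4 FPKM on day 0 and 50, 80.2 and 62.1 FPKM on day 7 (log2 change 1.13, edgeR adjusted p = 0.0316, up to 0.112).

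Matricellular proteins sit in the matrix and signal to cells rather than hold it together. The list of matricellular and provisional matrix genes, not all of this kind, gave 3 of 17 higher (Tnn, Cthrc1 and Vcan) and 1 lower, Sdc4 (median log2 change 0.88). The number higher was 2, 1 and 1 without day 0 replicates 1, 2 and 3 and 5, 3 and 6 without day 7 replicates 1, 2 and 3. Tnn, which encodes tenascin-W, was at 3.33, 1.89 and 1.58 FPKM on day 0 and 20.7, 38.1 and 30.2 FPKM on day 7 (log2 change 3.52, standard error 0.36, edgeR adjusted p = 0.00616) and kept its call in all 6 fits. Cthrc1 (ENSMUSG00000054196, chromosome 15, 39076932 to 39087121), the secreted collagen triple helix repeat protein deleted in the other mice of the series, was at 27, 21.9 and 21.1 FPKM on day 0 and 106, 95.5 and 74 FPKM on day 7 (log2 change 1.81, standard error 0.22, edgeR adjusted p = 0.00901). All 3 day 7 values were over 3 times the day 0 mean, which was 23.3 ± 3.2 FPKM (SD, n = 3), and its call was lost without 2 of 6 libraries (day 0 replicate 2 and day 0 replicate 3; adjusted p up to 0.0545 in edgeR). Vcan, the large proteoglycan versican, was at 3.75, 2.51 and 2.34 FPKM on day 0 and 15.6, 7.2 and 10.8 FPKM on day 7 (log2 change 1.81, edgeR adjusted p = 0.0318, up to 0.123). Sparc, the list's most abundant member, was at 1964, 2421 and 1878 FPKM on day 0 and 1528, 1564 and 1068 FPKM on day 7 (edgeR adjusted p = 0.0953).

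Among 10 small leucine-rich proteoglycans, which bind collagen fibrils, 3 were called lower (Fmod, Podn and Kera) and 1 higher (Bgn). The number lower was 0, 0 and 0 without day 0 replicates 1, 2 and 3 and 4, 2 and 2 without day 7 replicates 1, 2 and 3. Fmod, fibromodulin, was at 25.8, 28.4 and 23.9 FPKM on day 0 and 6.87, 13.2 and 9.4 FPKM on day 7 (log2 change -1.60, edgeR adjusted p = 0.0114, up to 0.0571). Bgn, biglycan, was at 127, 99 and 118 FPKM on day 0 and 272, 283 and 201 FPKM on day 7 (log2 change 0.97, edgeR adjusted p = 0.0384, up to 0.141), each day 7 sample over every day 0 sample. Elastic fibre genes were called in both directions, 2 of 16 higher (Fbln2 and Fbn2) and 2 lower (Ltbp1 and Ltbp4). Fbln2, fibulin 2, was at 33, 25 and 25.4 FPKM on day 0 and 91.3, 97.2 and 62.6 FPKM on day 7 (log2 change 1.42, edgeR adjusted p = 0.0203, up to 0.0919), and Ltbp4, a latent TGF-beta binding protein, was at 43.7, 48.4 and 50.6 FPKM on day 0 and 21, 32 and 31.4 FPKM on day 7 (log2 change -0.95, edgeR adjusted p = 0.0161, up to 0.0754). Without any 1 day 0 library edgeR called 0 elastic fibre genes lower, and with total-count scaling it called 3 higher and 0 lower.

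Collagen processing and crosslinking enzymes had a median log2 change of 0.92, which was 0.17 without day 7 replicate 1. Of 16, 1 was called higher and 0 lower. DESeq2 called 7 higher and 1 lower, limma 2 and 0, and edgeR gave 6 and 1 at an unadjusted p under 0.05. The gene called was P4ha3, a collagen prolyl hydroxylase subunit, at 0.871, 0.269 and 1.11 FPKM on day 0 and 9.88, 7.45 and 3.79 FPKM on day 7 (log2 change 3.08, edgeR adjusted p = 0.0351, up to 0.12). Its day 0 mean was under 1 FPKM, so it passed the level filter only through day 7 and its call supports nothing by itself. Serpinh1, the collagen chaperone HSP47, was at 214, 215 and 93.7 FPKM on day 0 and 599, 305 and 115 FPKM on day 7 (edgeR adjusted p = 0.424), with overlap between days. The proteases and inhibitors gave 2 of 22 higher (Adam12 and Plat) and 2 lower (Timp3 and Timp4), and their median log2 change of 1.22 was 0.18 without day 7 replicate 1. Timp1, an inhibitor of matrix metalloproteinases, was at 20.2, 8.7 and 13.3 FPKM on day 0 and 2721, 75.7 and 39.7 FPKM on day 7 (edgeR adjusted p = 0.0899), so replicate 1 alone held most of its day 7 level. Adam12, a metalloproteinase, was at 2.82, 0.896 and 1.15 FPKM on day 0 and 15.9, 15.8 and 8.27 FPKM on day 7 (log2 change 2.88, edgeR adjusted p = 0.0259, up to 0.104), and Timp4 at 1.66, 3.12 and 2.17 FPKM on day 0 and 0.254, 0.601 and 0.237 FPKM on day 7 (log2 change -2.86, edgeR adjusted p = 0.0176, up to 0.0709). Timp4 passed the level filter only through day 0.

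Markers of dermal fibroblasts as a list were near the background. Of 17, 0 were called higher and 1 lower (median log2 change -0.01, and 0.16 with total-count scaling). With limma the calls were 0 higher and 1 lower, with DESeq2 1 and 2, and edgeR gave 1 and 4 at an unadjusted p under 0.05. Cd34, a sialomucin of fibroblasts, vessels and follicle stem cells, was at 61.5, 68.4 and 62 FPKM on day 0 and 32.5, 34.1 and 21.7 FPKM on day 7 (log2 change -1.29, edgeR adjusted p = 0.0218, up to 0.0906). S100a4, the list's most abundant member, was at 626, 550.5 and 591 FPKM on day 0 and 442, 153 and 212 FPKM on day 7 (edgeR adjusted p = 0.114).

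Contractile genes of smooth muscle and myofibroblasts were split. Of 16, 7 were called lower and 1 higher (Cald1, caldesmon). The number lower was 2, 2 and 2 without day 0 replicates 1, 2 and 3 and 6, 6 and 6 without day 7 replicates 1, 2 and 3, 4 with total-count scaling and 0 when all 12 samples of the series shared 1 estimate of the spread. Myh11, the smooth muscle myosin heavy chain, was at 25.3, 24.9 and 22.1 FPKM on day 0 and 6.96, 10.8 and 8.95 FPKM on day 7 (log2 change -1.63, standard error 0.15, edgeR adjusted p = 0.00561). Synpo2, an actin-binding protein of smooth muscle, was at 2.46, 2.14 and 2.44 FPKM on day 0 and 0.937, 1.27 and 1.18 FPKM on day 7 (log2 change -1.25, edgeR adjusted p = 0.00624). Both kept their call without any 1 library. Acta2, the actin that marks both smooth muscle and myofibroblasts, overlapped between days, at 148, 136 and 136 FPKM on day 0 and 157, 172 and 137 FPKM on day 7 (edgeR adjusted p = 0.909), and the sign of its change depended on the scaling. Imprinted growth genes were called higher in 2 of 14 (Mest and Grb10) and lower in 0, and in 0 of them without any 1 day 0 library or day 7 replicate 2. Mest was at 2.96, 1.17 and 4.89 FPKM on day 0 and 11.6, 42.1 and 23.4 FPKM on day 7 (log2 change 2.88, edgeR adjusted p = 0.0426, up to 0.144), and H19, a non-coding RNA, at 9.62, 3.13 and 16.9 FPKM on day 0 and 14.4, 81.8 and 42.5 FPKM on day 7 (edgeR adjusted p = 0.143).

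Wnt signalling, which drives hair growth, had members called in both directions. Of 34, 7 were higher and 5 lower (median log2 change -0.07, and 0.13 with total-count scaling, which called 7 and 1). The number higher was 3, 1 and 1 without day 0 replicates 1, 2 and 3 and 13, 4 and 4 without day 7 replicates 1, 2 and 3. In the same fits the number lower was 1, 0 and 0 without day 0 replicates 1, 2 and 3 and 6, 3 and 4 without day 7 replicates 1, 2 and 3. The ligand Wnt11 was at 2.79, 2.35 and 2.53 FPKM on day 0 and 5.86, 7.56 and 9.14 FPKM on day 7 (log2 change 1.36, standard error 0.15, edgeR adjusted p = 0.00756) and kept its call in all 6 fits. Lef1, a transcription factor that partners beta-catenin, was at 0.676, 0.519 and 0.696 FPKM on day 0 and 2.63, 5.45 and 6.84 FPKM on day 7 (log2 change 2.76, edgeR adjusted p = 0.00881, up to 0.0517). It passed the level filter only through day 7. Dkk2, a secreted Wnt modulator of the Dickkopf family, was at 10.5, 10.9 and 10.4 FPKM on day 0 and 1.17, 2.39 and 3.22 FPKM on day 7 (log2 change -2.44, edgeR adjusted p = 0.0103, up to 0.0534). Among other members of the list, Wnt10b, a ligand of the hair matrix, was at 1.77, 1.63 and 1.82 FPKM on day 0 and 3.17, 10.6 and 13.4 FPKM on day 7 (log2 change 2.14, edgeR adjusted p = 0.0364, up to 0.132), and Sfrp2, a secreted Wnt modulator, at 8.67, 5.35 and 6.08 FPKM on day 0 and 51.4, 55.9 and 28.8 FPKM on day 7 (log2 change 2.60, edgeR adjusted p = 0.0113, up to 0.0638). Called lower beside Dkk2 were Fzd2, Fzd7, Dkk3 and Rspo1 (adjusted p up to 0.145, 0.0735, 0.102 and 0.108 in the edgeR fits). Ctnnb1, which encodes beta-catenin, overlapped between days, at 107, 104 and 104 FPKM on day 0 and 108, 137 and 91.2 FPKM on day 7 (edgeR adjusted p = 0.775).

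Notch target genes differed among themselves. Of 17 members of the pathway, 3 were called higher (Notch2, Hey2 and Heyl) and 2 lower (Hes1 and Hey1). The target Hes1 was at 74.6, 73.9 and 81.1 FPKM on day 0 and 13.4, 24.2 and 31.9 FPKM on day 7 (log2 change -1.93, standard error 0.26, edgeR adjusted p = 0.0113), and the target Heyl at 1.25, 1.15 and 1.45 FPKM on day 0 and 4.06, 8.28 and 9.03 FPKM on day 7 (log2 change 2.26, edgeR adjusted p = 0.00914). Hey1 was at 4.46, 5.01 and 4.66 FPKM on day 0 and 2.08, 2.91 and 2.3 FPKM on day 7 (log2 change -1.14, edgeR adjusted p = 0.0126). In each case the days did not overlap, but the adjusted p reached 0.0576, 0.0545 and 0.0656 without 1 library, and edgeR called 1, 0 and 1 Notch genes in all without day 0 replicates 1, 2 and 3.

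In TGF-beta signalling, 1 of 19 was called higher (Smad6) and 2 lower (Tgfb2 and Skil), and 0 in either direction without any 1 day 0 library. The ligand Tgfb2 was at 4.62, 4.17 and 4.52 FPKM on day 0 and 2.01, 3.19 and 3.09 FPKM on day 7 (log2 change -0.88, edgeR adjusted p = 0.0229, up to 0.0932). Smad6, an inhibitory Smad, was at 2.3, 2.18 and 2.26 FPKM on day 0 and 3.39, 6.04 and 5.04 FPKM on day 7 (log2 change 0.90, edgeR adjusted p = 0.0377, up to 0.135). Of 22 wound growth factors and receptors, 0 were called higher and 2 lower, Hbegf (above) and Fgf1. There were 0 higher at an unadjusted p under 0.05, and DESeq2 and limma called 0 and 0 higher. Fgf1, a fibroblast growth factor, was at 4.42, 4.07 and 4.36 FPKM on day 0 and 1.05, 1.67 and 1.33 FPKM on day 7 (log2 change -1.85, edgeR adjusted p = 0.00575) and kept its call in all 6 fits. Vegfa, the vascular growth factor, was at 10.9, 11 and 10.7 FPKM on day 0 and 61, 10.4 and 6.99 FPKM on day 7, and replicate 1 alone stood above day 0.

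Neutrophil, macrophage and cytokine genes differed widely among the day 7 samples, and day 7 replicate 1 held most of their summed level. Neutrophil genes summed to 15.4, 16.9 and 11 FPKM on day 0 and 5413, 763 and 46.2 FPKM on day 7. All 3 day 7 samples were above day 0, with replicate 1 far above the others and replicate 3 the lowest. Of 11 tested of 16 in the table, 2 were called higher and 0 lower, and 7 of the 11 passed the filter only through day 7. Which cells expressed these genes was not measured. S100a8, a subunit of the antimicrobial complex calprotectin, was at 1.44, 1.86 and 1.07 FPKM on day 0 and 1210, 250.5 and 12.5 FPKM on day 7 (log2 change 8.29, standard error 1.84, edgeR adjusted p = 0.0372). Its partner S100a9 was at 3.69, 7.46 and 4.2 FPKM on day 0 and 3409, 483 and 24 FPKM on day 7 (log2 change 7.92, edgeR adjusted p = 0.049). Every day 7 sample was over every day 0 sample for both, which the rule for naming the largest rises required. Without 1 library the edgeR adjusted p reached 0.141 and 0.169. Without day 7 replicate 1 the log2 changes were 6.27 and 5.42. Ly6g, a surface marker of neutrophils, had no count on day 0 and was not called. Its day 7 mean was at least 131-fold higher. Without day 7 replicate 1, edgeR called 5 higher with a median log2 change of 3.08, and with all samples limma called 0 with a pseudocount of 1 and 1 with 0.1.

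Macrophage and monocyte genes summed to 540.2, 525 and 509 FPKM on day 0 and 2793, 1136 and 603 FPKM on day 7. Of 17, 1 was called higher and 0 lower, while DESeq2 called 10 and 0. The median log2 change was 1.26, and 0.55 without day 7 replicate 1. Ms4a7, a macrophage membrane protein, was at 2.29, 1.46 and 1.49 FPKM on day 0 and 7.39, 8.39 and 4.44 FPKM on day 7 (log2 change 1.78, edgeR adjusted p = 0.0248, up to 0.103). Lyz2, lysozyme, was at 189, 188 and 186 FPKM on day 0 and 843, 479 and 227 FPKM on day 7 (edgeR adjusted p = 0.131). In the list of alternatively activated macrophages, 1 of 17 was called higher (Trem2) and 2 lower (Retnla and Mgl2). Retnla, a secreted resistin-like protein also made by fat cells, was at 43.7, 58.9 and 46.2 FPKM on day 0 and 11.6, 9.34 and 7.84 FPKM on day 7 (log2 change -2.53, standard error 0.26, edgeR adjusted p = 0.00616) and kept its call in all 6 fits. Trem2, a lipid receptor, was at 1.08, 0.821 and 0.833 FPKM on day 0 and 7.54, 4.72 and 2.39 FPKM on day 7 (log2 change 2.28, edgeR adjusted p = 0.0344, up to 0.129). Its day 0 mean was under 1 FPKM, so it passed the level filter only through day 7. Arg1, arginase, was at 30.5, 33.8 and 31.9 FPKM on day 0 and 439, 23 and 7.45 FPKM on day 7 (edgeR adjusted p = 0.336), high in replicate 1 alone.

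Inflammatory cytokines summed to 400.1, 406 and 406 FPKM on day 0 and 1860, 242 and 257 FPKM on day 7, so replicates 2 and 3 were under the day 0 samples. Of 17, 1 was called higher and 0 lower. Il1f9, a cytokine of keratinocytes, was at 2.66, 4.43 and 4.53 FPKM on day 0 and 25, 14.4 and 11.8 FPKM on day 7 (log2 change 1.99, edgeR adjusted p = 0.0333, up to 0.111). The list's median log2 change of 2.20 was -0.24 without day 7 replicate 1, with 2 called higher and 4 lower. Of 37 chemokines and receptors edgeR called 0 in either direction. At an unadjusted p under 0.05 edgeR gave 8 higher and 4 lower, and DESeq2 and limma, at an adjusted p under 0.05, called 5 and 0 higher and 3 and 1 lower. Without day 7 replicate 1, it called 3 higher and 8 lower. Of 31 interferon-stimulated genes it called 0. DESeq2 called 3 higher and 1 lower, limma 0 and 1, and edgeR gave 3 and 1 at an unadjusted p under 0.05.

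**Figure D4:**
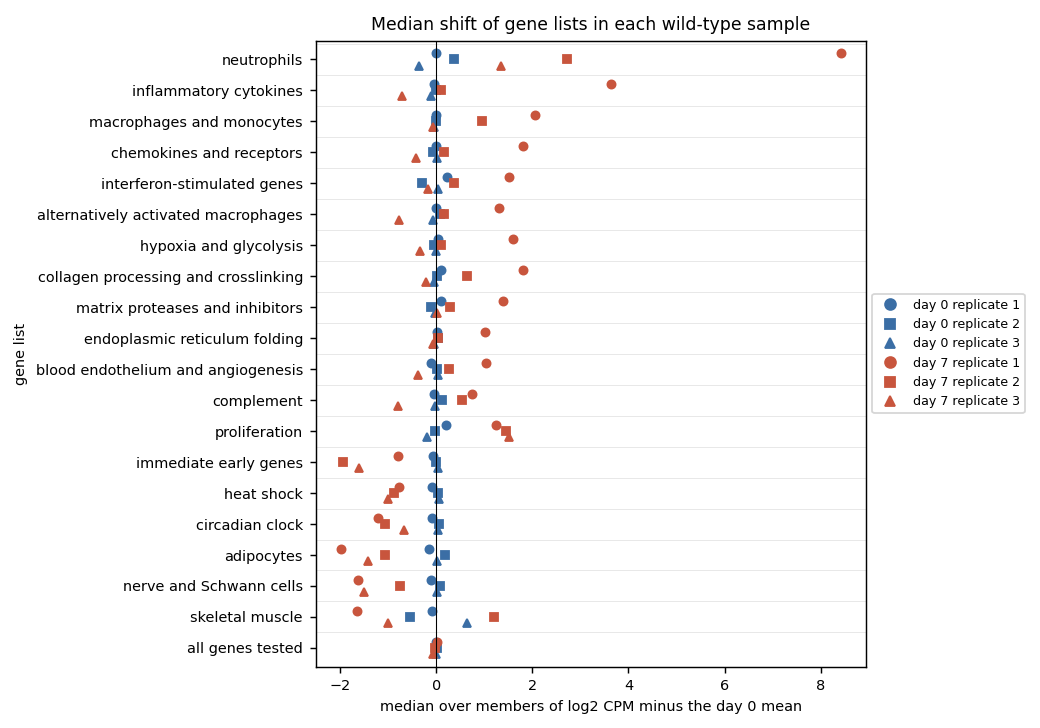
Median over the members of 20 lists of the log2 depth-scaled count minus the day 0 mean, for each sample, with day 0 in blue and day 7 in red. The day 7 replicates lie close together for proliferation (1.25, 1.45 and 1.51 in replicates 1, 2 and 3) and far apart for neutrophils (8.42, 2.73 and 1.35) and inflammatory cytokines (3.63, 0.09 and -0.70).

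Other immune lists held few calls. Of 13 lymphocyte genes, 2 were called higher and 0 lower. Ctla4, an inhibitory receptor of T cells, was at 0.32, 0.338 and 0.251 FPKM on day 0 and 1.79, 2.55 and 1.61 FPKM on day 7 (log2 change 2.51, standard error 0.28, edgeR adjusted p = 0.00775) and kept its call in all 6 fits. Trac, the constant region of the T cell receptor alpha chain, was at 0.932, 1.05 and 1.1 FPKM on day 0 and 2.62, 3.24 and 2.8 FPKM on day 7 (log2 change 1.28, edgeR adjusted p = 0.0196, up to 0.0834), while Trbc2, a beta chain constant region, overlapped between days at 24.6, 27.3 and 25.8 FPKM on day 0 and 15.3, 26.4 and 36 FPKM on day 7. Of 10 antigen presentation genes, 2 were called lower (H2-Eb1 and Cd83) and 0 higher, and total-count scaling gave 2 higher and 0 lower. H2-Eb1, an MHC class II chain, was at 97.5, 98 and 102 FPKM on day 0 and 74.9, 89.3 and 75.2 FPKM on day 7 (log2 change -0.49, edgeR adjusted p = 0.0429, up to 0.149). Of 8 mast cell genes, 1 was called higher and 0 lower. This was Kit, a receptor that melanocytes also carry, at 0.732, 0.583 and 0.524 FPKM on day 0 and 2.33, 2.47 and 2.41 FPKM on day 7 (log2 change 1.79, edgeR adjusted p = 0.00596), which kept its call in all 6 fits. Kit was 1 of 2 mast cell members with a day 0 mean under 1 FPKM. It passed the level filter only through day 7, so its call supports nothing by itself. The mast cell protease Mcpt4 was at 22.3, 24.1 and 27.4 FPKM on day 0 and 48, 35.7 and 34.8 FPKM on day 7 (edgeR adjusted p = 0.158).

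Complement genes gave 0 of 16 higher and 3 lower (Cd55, C7 and C6). Cd55, a membrane protein that limits complement, was at 20.1, 19.9 and 19.2 FPKM on day 0 and 6.75, 9.47 and 6.8 FPKM on day 7 (log2 change -1.55, edgeR adjusted p = 0.00616) and kept its call in all 6 fits. C7, a component of the membrane attack complex, was at 19.8, 31.5 and 21.2 FPKM on day 0 and 3.27, 8.17 and 2.17 FPKM on day 7 (log2 change -2.60, edgeR adjusted p = 0.0319, up to 0.107). In the antimicrobial list, 1 of 15 was called higher and 2 lower. Wfdc3, a whey acidic protein domain gene, was at 39.7, 40.6 and 40.9 FPKM on day 0 and 0.0431, 0.174 and 0.395 FPKM on day 7 (log2 change -7.83, standard error 0.73, edgeR adjusted p = 0.00575), a nearly even level on day 0 and close to 0 in each day 7 sample, and kept its call in all 6 fits. It passed the level filter only through day 0. Defb8, a beta-defensin, was at 103, 125 and 68 FPKM on day 0 and 0.559, 9.89 and 6.65 FPKM on day 7 (log2 change -4.33, edgeR adjusted p = 0.0334, up to 0.108). S100a7a was called higher, at 1.48, 1.83 and 1.21 FPKM on day 0 and 3.08, 19.4 and 10.1 FPKM on day 7 (log2 change 2.63, edgeR adjusted p = 0.0458, up to 0.159).

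Most adipocyte genes fell. They summed to 856, 1123 and 1028 FPKM on day 0 and 218, 417 and 302 FPKM on day 7, with every day 7 sample under every day 0 sample. Of 22 members, 13 were called lower and 0 higher (median log2 change -1.40), and the values of the days were apart, with day 7 lower, for 18, beside 14.5% of all genes. With limma the calls were 0 higher and 14 lower, with DESeq2 0 and 19, and edgeR gave 0 and 20 at an unadjusted p under 0.05. Leaving out libraries, the number called lower was 5, 2 and 2 without day 0 replicates 1, 2 and 3 and 16, 12 and 12 without day 7 replicates 1, 2 and 3. Cfd, which encodes adipsin, was at 309, 437 and 416 FPKM on day 0 and 20.5, 72.7 and 34.6 FPKM on day 7 (log2 change -3.39, standard error 0.48, edgeR adjusted p = 0.0121, up to 0.0582). Retn, the fat-derived hormone resistin, was at 16.6, 24.6 and 20.9 FPKM on day 0 and 1.95, 4.28 and 2.33 FPKM on day 7 (log2 change -3.05, edgeR adjusted p = 0.00756) and kept its call in all 6 fits. Pparg, the receptor that directs fat cell differentiation, was at 6.95, 7.44 and 6.11 FPKM on day 0 and 2.02, 3.27 and 2.96 FPKM on day 7 (log2 change -1.51, edgeR adjusted p = 0.00877, up to 0.0503), and the triglyceride lipase Pnpla2 was at 24.4, 35.5 and 30 FPKM on day 0 and 13.7, 16.6 and 16.9 FPKM on day 7 (log2 change -1.12, edgeR adjusted p = 0.0118, up to 0.0608). Each of these 2 lost its call without 1 of the 6 libraries only (without day 0 replicate 2 for Pparg and day 0 replicate 3 for Pnpla2).

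Nerve and Schwann cell genes summed to 132, 193 and 133 FPKM on day 0 and 48.3, 97.9 and 58.5 FPKM on day 7. Of 12, 6 were called lower and 0 higher. The number lower was 2, 1 and 1 without day 0 replicates 1, 2 and 3 and 6, 6 and 3 without day 7 replicates 1, 2 and 3, and 3 with total-count scaling. At an unadjusted p under 0.05 edgeR gave 0 higher and 9 lower, and DESeq2 and limma, at an adjusted p under 0.05, called 0 and 0 higher and 9 and 5 lower. Ngfr, the low-affinity neurotrophin receptor, was at 6.66, 9.02 and 7.96 FPKM on day 0 and 2.01, 2.89 and 2.9 FPKM on day 7 (log2 change -1.79, standard error 0.18, edgeR adjusted p = 0.00613) and kept its call in all 6 fits. Scn7a, a sodium channel of non-myelinating Schwann cells, was at 4.78, 4.78 and 5.48 FPKM on day 0 and 2.59, 3.17 and 2.54 FPKM on day 7 (log2 change -1.04, edgeR adjusted p = 0.0115, up to 0.0586). Mbp, a myelin protein, was at 5.97, 7 and 6.03 FPKM on day 0 and 3.73, 4.82 and 3.38 FPKM on day 7 (log2 change -0.85, edgeR adjusted p = 0.0296, up to 0.112).

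Vessel genes gave 2 of 23 higher and 1 lower, and their median log2 change of 0.50 was 0.02 without day 7 replicate 1. Sox18, an endothelial transcription factor also found in hair follicle mesenchyme, was at 7.64, 8.36 and 9.12 FPKM on day 0 and 27.6, 27 and 26.1 FPKM on day 7 (log2 change 1.51, standard error 0.14, edgeR adjusted p = 0.00561) and kept its call in all 6 fits. Aplnr, the apelin receptor, was at 2.43, 2.6 and 2.81 FPKM on day 0 and 31.4, 13.2 and 7.49 FPKM on day 7 (log2 change 2.61, edgeR adjusted p = 0.0406, up to 0.141). Cldn5, a tight junction protein of endothelium, was at 23.9, 25.7 and 28.5 FPKM on day 0 and 14.3, 20.3 and 16.9 FPKM on day 7 (log2 change -0.79, edgeR adjusted p = 0.023, up to 0.0906). Of 5 lymphatic genes 0 were called. DESeq2 called 1 higher and 2 lower, limma 0 and 0, and edgeR gave 1 and 2 at an unadjusted p under 0.05.

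Of 29 skeletal muscle genes, 0 were called in either direction, also by DESeq2 and limma, and 0 reached an unadjusted p under 0.05 in edgeR. Acta1, the skeletal muscle actin, was at 157, 116 and 278 FPKM on day 0 and 60.4, 457 and 91.9 FPKM on day 7 and overlapped between days. The list's median shift from the day 0 mean was -1.64, 1.20 and -1.01 on the log2 scale in day 7 replicates 1, 2 and 3, so the samples differed in sign.

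Most cell division genes rose. Their median shift from the day 0 mean was similar in day 7 replicates 1, 2 and 3 (1.25, 1.45 and 1.51 on the log2 scale). Some members, such as Mki67 (below), differed more between these samples. The proliferation list summed to 243, 216 and 200.4 FPKM on day 0 and 455, 551 and 613 FPKM on day 7. Of 45 members, 36 were called higher and 0 lower (median log2 change 1.38, beside 0.00 over all genes). With limma the calls were 37 higher and 0 lower, with DESeq2 42 and 0, and edgeR gave 42 and 0 at an unadjusted p under 0.05. The number higher was 29, 19 and 21 without day 0 replicates 1, 2 and 3 and 41, 28 and 33 without day 7 replicates 1, 2 and 3. Hair matrix genes rose in the same samples (above), and their part in this result was not tested.

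Mybl2, a transcription factor of the cell cycle, was at 0.85, 0.753 and 0.689 FPKM on day 0 and 4.78, 5.03 and 5.16 FPKM on day 7 (log2 change 2.51, standard error 0.14, edgeR adjusted p = 0.00435). Mcm2 (ENSMUSG00000002870, chromosome 6, 88883474 to 88898780), a subunit of the helicase that opens DNA for replication, was at 3.43, 2.89 and 2.96 FPKM on day 0 and 8.86, 9.56 and 10.6 FPKM on day 7 (log2 change 1.46, standard error 0.11, edgeR adjusted p = 0.00435). Cenpa, the histone H3 variant of centromeres, was at 2.46, 2.02 and 1.95 FPKM on day 0 and 6.43, 7.26 and 8.15 FPKM on day 7 (log2 change 1.57, edgeR adjusted p = 0.00462). For these 3 genes the days were wide apart beside the spread within a day, and the calls were kept without any 1 library. Mybl2 had a day 0 mean under 1 FPKM and passed the level filter only through day 7. Mki67, the antigen of cycling cells, was at 8.38, 7.07 and 5.92 FPKM on day 0 and 9.42, 23.3 and 26 FPKM on day 7 (log2 change 1.24, edgeR adjusted p = 0.064), so day 7 replicate 1 lay close to day 0 and the gene did not pass. Top2a, the topoisomerase that untangles chromosomes, was at 8.13, 6.22 and 5.38 FPKM on day 0 and 13, 19.6 and 21 FPKM on day 7 (log2 change 1.25, edgeR adjusted p = 0.0169, up to 0.084). Pcna, the sliding clamp of DNA polymerases and the list's most abundant member, was at 48.2, 46.4 and 48.5 FPKM on day 0 and 54.2, 51.9 and 61.6 FPKM on day 7 and did not pass (log2 change 0.05, edgeR adjusted p = 0.786).

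The Mcm2 promoter is shown because it holds both sequences that were searched in the proliferation list, the CCAAT box and TTTGAA, the core of the cell cycle homology region. It lies on the minus strand at chr6:88898781-88899030 and was taken from RefSeq on GRCm38.p6, and the capitals mark ATTGG, the CCAAT box read on the other strand, which begins 175 bases before the start, and TTTGAA, which begins 70 bases before it.
Mcm2: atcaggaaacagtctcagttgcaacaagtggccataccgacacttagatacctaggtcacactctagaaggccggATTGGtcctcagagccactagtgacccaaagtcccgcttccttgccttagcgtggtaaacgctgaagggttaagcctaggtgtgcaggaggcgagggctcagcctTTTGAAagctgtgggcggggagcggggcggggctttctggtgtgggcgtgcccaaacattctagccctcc
CCAAT occurred, on either strand, in 31 of 39 proliferation windows found and in 37.9% of all windows of the same length. Among called members it was in 23 of 30 and among the others in 8 of 9. TTTGAA occurred in 22 of 39 and in 18.1% of all windows, in 16 of 30 called members and 6 of 9 others. TATAAA occurred in 0 of 39.

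Immediate early genes, which are transcribed within minutes of a stimulus such as a growth factor or stress, were at high levels on day 0, and 16 of 30 fell. The list summed to 5788, 6184 and 6186 FPKM on day 0 and 3035, 1616 and 2200 FPKM on day 7. None was called higher (median log2 change -1.36). At an unadjusted p under 0.05 edgeR gave 0 higher and 21 lower, and DESeq2 and limma, at an adjusted p under 0.05, called 0 and 0 higher and 21 and 18 lower. The number called lower was 10, 9 and 9 without day 0 replicates 1, 2 and 3 and 25, 12 and 13 without day 7 replicates 1, 2 and 3.

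Fos, a subunit of the AP-1 factor, was at 888, 1004 and 897 FPKM on day 0 and 274, 204 and 266 FPKM on day 7 (log2 change -2.08, standard error 0.19, edgeR adjusted p = 0.00561). Egr1, a zinc finger factor, was at 425, 494 and 454 FPKM on day 0 and 121, 97.7 and 134 FPKM on day 7 (log2 change -2.14, edgeR adjusted p = 0.00462). Atf3 (ENSMUSG00000026628, chromosome 1, 191170296 to 191218039), a stress-induced factor of the ATF/CREB family, was at 329, 328 and 382 FPKM on day 0 and 48, 51.5 and 72.8 FPKM on day 7 (log2 change -2.79, standard error 0.17, edgeR adjusted p = 0.00435). Nr4a1, an orphan nuclear receptor, was at 343, 292 and 311 FPKM on day 0 and 48.7, 47.4 and 75.7 FPKM on day 7 (log2 change -2.65, edgeR adjusted p = 0.00435). The days did not overlap for these 4 genes, their day 0 samples lay close together, and each kept its call without any 1 library.

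The Atf3 promoter is shown for TGACG, part of the cyclic AMP response element bound by ATF/CREB factors. It lies on the minus strand at chr1:191183334-191183583 in RefSeq on GRCm38.p6, and the capitals mark CGTCA, the reverse complement of that sequence, which begins 7 bases before the start. RefSeq's start lies inside the span of the gene model given above, which reaches farther upstream.
Atf3: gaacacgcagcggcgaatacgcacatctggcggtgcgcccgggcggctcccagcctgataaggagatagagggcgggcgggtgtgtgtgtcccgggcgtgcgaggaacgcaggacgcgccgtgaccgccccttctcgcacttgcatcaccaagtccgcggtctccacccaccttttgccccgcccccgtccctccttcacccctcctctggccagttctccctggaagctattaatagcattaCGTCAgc
TGACG occurred on either strand in 15 of 26 immediate early windows found and in 21.0% of all windows. It was in 7 of 13 members called lower and in 7 of 12 that were not called.

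Heat shock genes, which encode chaperones of unfolded proteins, were lower in 8 of 15 members and higher in 0. DESeq2 called 1 higher and 12 lower, limma 1 and 6, and edgeR gave 1 and 12 at an unadjusted p under 0.05. The number lower was 3, 2 and 3 without day 0 replicates 1, 2 and 3 and 10, 3 and 9 without day 7 replicates 1, 2 and 3, and 5 with total-count scaling, which called 1 higher. Hspb8, a small heat shock protein, was at 132, 145 and 147 FPKM on day 0 and 42.6, 57.4 and 62.1 FPKM on day 7 (log2 change -1.58, standard error 0.13, edgeR adjusted p = 0.00459). Dnajb1, a co-chaperone of HSP70, was at 56.6, 62.5 and 62.7 FPKM on day 0 and 24.5, 24.8 and 34.6 FPKM on day 7 (log2 change -1.31, edgeR adjusted p = 0.00695). Both kept their call in all 6 fits. Hsp90aa1, the inducible HSP90, was at 91.3, 102 and 95.8 FPKM on day 0 and 54.6, 51.8 and 58.4 FPKM on day 7 (log2 change -0.99, edgeR adjusted p = 0.00791, up to 0.0502) and lost its call only without day 0 replicate 2. Hsp90ab1, the constitutive form, overlapped between days at 619, 626 and 609 FPKM on day 0 and 441, 514 and 632 FPKM on day 7 (edgeR adjusted p = 0.0878).

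Of 17 clock genes, 6 were called lower and 0 higher. With limma the calls were 0 higher and 6 lower, with DESeq2 0 and 8, and edgeR gave 0 and 9 at an unadjusted p under 0.05. The number lower was 2, 1 and 1 without day 0 replicates 1, 2 and 3 and 10, 4 and 7 without day 7 replicates 1, 2 and 3. The hour of sampling is not given in the sources used here. Arntl, which encodes the activator BMAL1, was at 6.61, 6.65 and 6.09 FPKM on day 0 and 3.4, 3.26 and 3.77 FPKM on day 7 (log2 change -1.07, standard error 0.11, edgeR adjusted p = 0.00613) and kept its call in all 6 fits. Its alternative partner Npas2 was at 4.66, 4.07 and 4.1 FPKM on day 0 and 1.89, 1.57 and 1.29 FPKM on day 7 (log2 change -1.59, edgeR adjusted p = 0.0125, up to 0.0599), and the repressor Cry2 at 9.34, 10.2 and 10.2 FPKM on day 0 and 4.17, 5.54 and 6.37 FPKM on day 7 (log2 change -1.08, edgeR adjusted p = 0.00862, up to 0.0511).

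**Figure D5:**
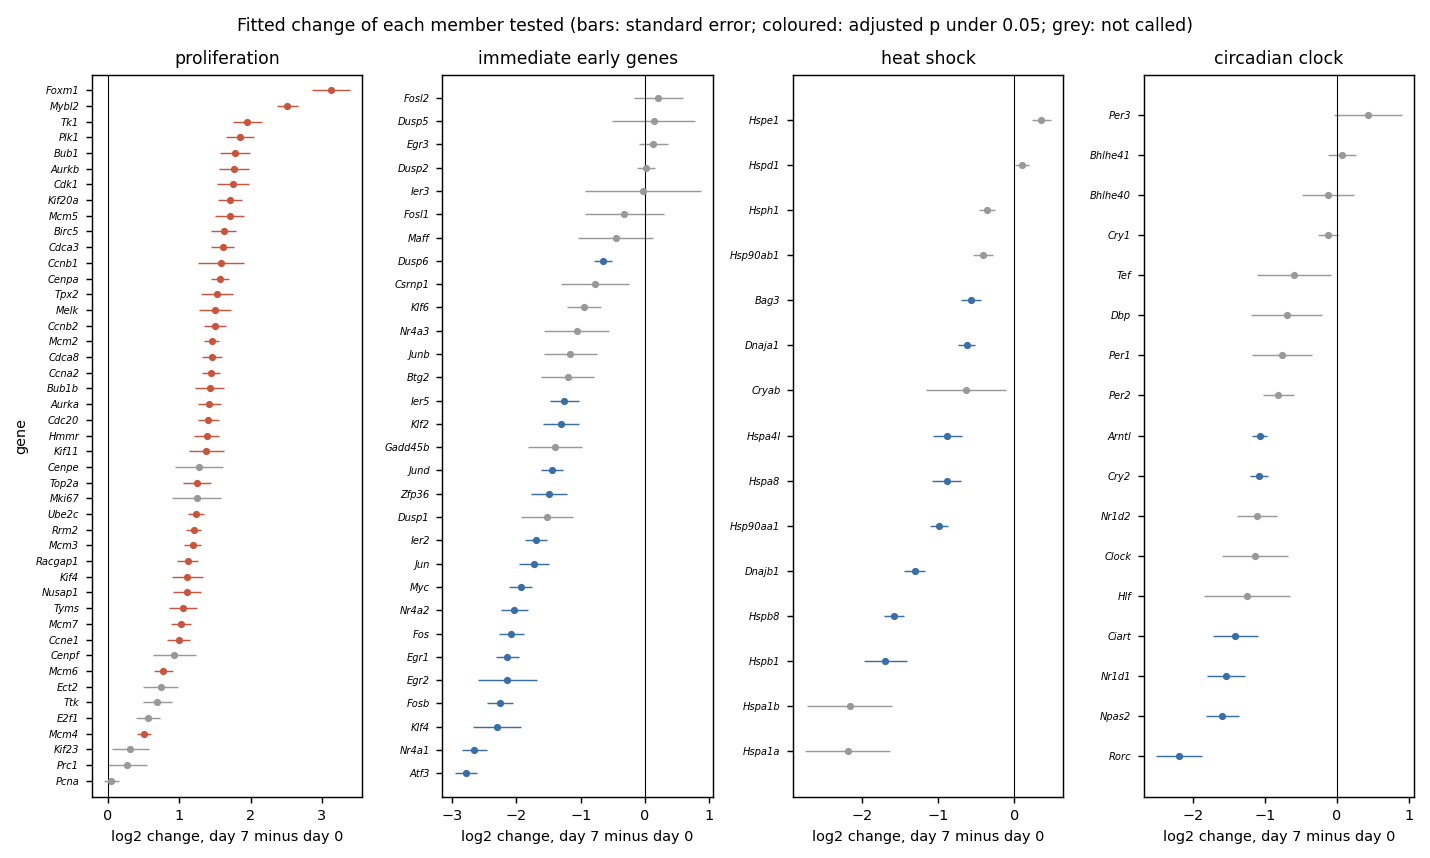
Fitted log2 change from day 0 to day 7 with its standard error for each tested member of the proliferation, immediate early, heat shock and circadian clock lists, coloured where edgeR called it. Of the 45 proliferation members, 36 are coloured to the right of 0, and 16 of 30 immediate early, 8 of 15 heat shock and 6 of 17 clock members are coloured to the left.

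Of the 13 protein-coding genes of the mitochondrial genome, 10 were called lower and 0 higher (median log2 change -1.07). These calls needed all 3 day 0 libraries: the number lower was 0, 0 and 0 without day 0 replicates 1, 2 and 3 and 10, 7 and 7 without day 7 replicates 1, 2 and 3, and 6 with total-count scaling. mt-Co1, a subunit of complex IV, was at 17710, 15870 and 19380 FPKM on day 0 and 8284, 9632 and 7862 FPKM on day 7 (log2 change -1.22, standard error 0.21, edgeR adjusted p = 0.0193, up to 0.0852). mt-Nd3, a subunit of complex I, was at 2457, 2308 and 2922 FPKM on day 0 and 1188, 1460 and 1173 FPKM on day 7 (log2 change -1.19, edgeR adjusted p = 0.0114, up to 0.0544). The 89 nuclear genes of the same chain gave 3 higher and 1 lower (median log2 change 0.03), and total-count scaling gave 15 higher and 1 lower. The difference between the 2 sets was not tested. Of 87 genes tested in the ribosomal protein list, 1 was called higher and 1 lower, a share under that of all genes. The one called higher was Rps4l, which is annotated as a processed pseudogene.

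Of 27 hypoxia and glycolysis genes edgeR called 0. At an unadjusted p under 0.05 edgeR gave 3 higher and 1 lower, and DESeq2 and limma, at an adjusted p under 0.05, called 3 and 0 higher and 0 and 0 lower. The median shift from day 0 was 1.59, 0.10 and -0.34 in day 7 replicates 1, 2 and 3, so replicate 1 alone was clearly above. In the list of protein folding in the endoplasmic reticulum, 1 of 20 was called lower and 0 higher, with 2 higher at an unadjusted p under 0.05 and 2 and 2 by DESeq2 and limma. It was Atf4, the stress response factor, at 259, 266 and 268 FPKM on day 0 and 171, 131 and 134 FPKM on day 7 (log2 change -1.03, edgeR adjusted p = 0.0228, up to 0.0919).

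Among the 10 largest falls were genes known from liver, stomach and pancreas rather than from dermis. Of 14 liver-type secreted protein genes tested of 21 in the table, 11 were called lower and 0 higher, and 11 passed the level filter only through day 0. The number lower was 6, 6 and 3 without day 0 replicates 1, 2 and 3 and 13, 9 and 9 without day 7 replicates 1, 2 and 3. Alb, serum albumin, was at 33.9, 11.5 and 22.7 FPKM on day 0 and 0.183, 0.119 and 0.361 FPKM on day 7 (log2 change -6.85, standard error 0.64, edgeR adjusted p = 0.00575), and Apoa2, an apolipoprotein, at 10.5, 4.28 and 8.04 FPKM on day 0 and 0.507, 0.539 and 0.608 FPKM on day 7 (log2 change -3.95, edgeR adjusted p = 0.00634). In both, day 0 replicate 2 was the lowest of the day. Both kept their call in all 6 fits. Serpina1c, an alpha-1 antitrypsin gene with near-identical copies, and Ttr, transthyretin, had no count on day 7 and were at least 122-fold and 150-fold lower. Hp, haptoglobin, also made by fat and myeloid cells, differed from the rest, at 80.4, 112 and 81.9 FPKM on day 0 and 423, 35.1 and 14.2 FPKM on day 7, highest in day 7 replicate 1.

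Pgc, a stomach pepsinogen, was at 36.3, 20.4 and 30.2 FPKM on day 0 and 0, 0 and 0.0749 FPKM on day 7 (log2 change -10.21, edgeR adjusted p = 0.00613) and kept its call in all 6 fits. Clps, pancreatic colipase, was at 17.1, 10.7 and 23.1 FPKM on day 0 and 0, 0.172 and 0 FPKM on day 7 (log2 change -8.12, edgeR adjusted p = 0.0127, up to 0.0624), and Mup10, a major urinary protein of a family of close copies, was at 12.5, 14 and 9.8 FPKM on day 0 and 0, 0.129 and 0 FPKM on day 7 (log2 change -8.21, edgeR adjusted p = 0.0134, up to 0.0628). Each had 1 day 7 sample with counts and 2 with none. Without that sample, day 7 replicate 3 for Pgc and replicate 2 for Clps and Mup10, the fitted log2 changes were -14.49, -12.52 and -13.22; with no day 7 count left, these depend on the prior count and are no bound. In the other 5 fits they stayed between -10.40 and -9.60 for Pgc. Krt24, a keratin of stratified epithelia, was at 30.6, 29.7 and 31.8 FPKM on day 0 and 0.331, 1.02 and 1.4 FPKM on day 7 (log2 change -5.28, edgeR adjusted p = 0.00575). Serpinb11, a protease inhibitor family gene, was at 45, 50.1 and 42 FPKM on day 0 and 1.07, 3.67 and 3.03 FPKM on day 7 (log2 change -4.36, edgeR adjusted p = 0.00616). Angptl7, an angiopoietin-like secreted protein, was at 17.3, 27 and 22.6 FPKM on day 0 and 0.465, 1.23 and 1.1 FPKM on day 7 (log2 change -4.78, edgeR adjusted p = 0.00462). These 3 kept their call in all 6 fits. Every day 7 sample was under every day 0 sample, which the rule for naming the largest falls required. Pgc, Clps, Mup10, Krt24 and Angptl7 had a day 7 mean under 1 FPKM and passed the level filter only through day 0. The calls of these genes support nothing by themselves.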

How the data were processed

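RNA was measured in 3 WT samples of day 0 and 3 of day 7, grouped by the sample titles. The table deposited by the authors gives, per gene, a raw count and an FPKM value in each sample, per the file headers. The submitters' processing notes name cutadapt 1.9, HISAT2 2.0.4, UMI-tools, StringTie 1.3.4d and the GRCm38 build; the counting program and any collapse of molecular identifiers are not given in the sources used here. A count of 0 stands in the deposited table with an FPKM of 0.0001, which was read as 0. Of 55401 gene identifiers, 55141 were named from GENCODE vM21 or RefSeq tables, and every named gene is protein-coding in that annotation except H19, the T cell receptor segments Trac and Trbc2, and Rps4l. Positions are on GRCm38. The kit marks strand, but how strand entered the counting is not given either, so overlapping genes are uncertain.

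Counts were tested with edgeR 4.0.16 in R 4.3.3 (TMM factors, quasi-likelihood, the 6 WT samples only, no covariate) on genes with a mean of at least 1 FPKM, with Benjamini-Hochberg adjustment over all 14251. Total counts of 48778112 to 76938132 set the precision. A group at 0 was set to a limit of 3 counts per library and compared with the mean of the other group. These limits cover counting error only. On data simulated for this comparison (14251 genes, 200 changed), edgeR recovered 0%, 2%, 48% and 84% of genes changed 1.5-, 2-, 4- and 8-fold, and 4.29% of its calls were false. It called 70 genes there against 2121 in the data. The adjusted p depends on how many genes change, so these shares need not hold for the data.

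The members and lists were chosen with earlier results of these data known, so no p-value is given over a list. The genes named are those with the 10 highest and the 10 lowest differences in mean log2(FPKM + 1), taken from called genes with a mean of at least 5 FPKM, a full gene symbol and no overlap between days, the 3 called members with the smallest p and the most abundant member of each of 52 lists, and Cthrc1; other genes named, such as Mitf, Mki67 and Col1a2, are further list members. A gene that this rule names is not reported here. Alternatives were DESeq2 1.42.0, limma 3.58.1 on log2(FPKM + 1) and log2(FPKM + 0.1), RLE, upper-quartile and total-count scaling, no filter or one of 5 FPKM, a fit on all 12 samples, a replicate block, counts divided by 4 (whole multiples of 4 were frequent), and leaving out each library.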

Additional observations from a re-analysis of the deposited data

How the results depend on the processing

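Of 265 called genes that are list members or were named by rule, 0 changed direction in any of the 17 alternatives that gave them a value, and 57 moved by over 1.5-fold without 1 library. The number of genes called, 2121 in the reported fit (896 higher and 1225 lower), ranged from 357 to 3458 when 1 library was left out (148 to 1636 higher, 209 to 1822 lower), and only 45 of 128 named calls held in all 6 such fits; day 7 replicate 1 cost 2 of them and day 0 replicate 2 cost 81. DESeq2 called 4360 (2241 higher, 2119 lower). On simulated data with 200 of 14251 genes changed, 39.8% of its 181 calls were false. That share depends on how many genes change and was not measured for the data. A filter of 5 FPKM, which tests fewer genes, gave 1382 (573 and 809). Total-count scaling gave 1510 higher and 595 lower, limma with a pseudocount of 1 gave 1438 and 741, and with 0.1 it gave 1464 and 688; the median over all genes moved to 0.19, 0.13 and 0.16 on the log2 scale. Samples with the same replicate number had weakly correlated deviations (0.0876, 0.0173 and 0.0741), too weak to treat the numbers as pairing them, although each sample correlated best with its own number, a hint from the data and not the design. The fit with a replicate block called 122 genes, 57 higher and 65 lower.

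The reversals were all in list members that edgeR did not call. With total-count scaling the log2 change was 0.10 for Ctnnb1, 0.16 for Acta2, 0.013 for Trbc2, 0.10 for Serping1, 0.16 for Acta1, 0.026 for Bhlhe40 and 0.13 for Rplp0. For Acta2 it was 0.005 with DESeq2, 0.005 with RLE factors and 0.021 with upper-quartile factors, which gave 0.003 for Acta1. With limma at pseudocounts of 1 and 0.1 it was 0.07 and 0.07 for Ctnnb1, 0.14 and 0.14 for Acta2, -0.39 and -0.40 for Ifi27l2a, 0.039 and 0.074 for Actc1, -0.57 and -0.60 for Hp, and 0.10 and 0.10 for Rplp0. With the replicate block it was -0.12 for Arg1, -0.62 for Ifi27l2a and -1.05 for Hp. Leaving out 1 library, it ran from -1.07 to 0.036 for Tgfbi, -0.23 to 0.078 for Ctnnb1, -0.52 to 1.65 for Vegfa, -0.086 to 0.096 for Acta2, -1.27 to 2.79 for Arg1, -1.46 to 0.47 for Ifi27l2a, -0.47 to 0.065 for Trbc2, -0.56 to 0.34 for Serping1, -1.46 to 0.38 for Acta1, -0.77 to 0.74 for Actc1, -2.09 to 1.27 for Hp, -0.60 to 0.11 for Bhlhe40 and -0.18 to 0.04 for Rplp0. The cause was not tested. In the simulation, with 200 of 14251 genes changed, edgeR recovered 2% of 2-fold changes. In the data some changes under 2-fold were called, such as H2-Eb1 (log2 change -0.49) and Smad6 (0.90). Neither call held in all 6 fits without 1 library. With 3 samples a group, how many changes of about 2-fold were missed is not known.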
